A study of Mus musculus with 4 samples.

Results

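The cyclin genes of the cell cycle were followed in BEKO, a mouse thymic lymphoma cell line, grown at high and at low cell density. The 10 members were chosen by symbol: the D cyclins Ccnd1, Ccnd2 and Ccnd3, the E cyclins Ccne1 and Ccne2, the A cyclin Ccna2, the B cyclins Ccnb1 and Ccnb2, cyclin F (Ccnf) and the atypical cyclin G2 (Ccng2). All 10 had a row in the table of 25630 gene rows, and 9 passed the filter of a mean of at least 1 TPM (a transcript abundance divided by length and scaled to the same total in every library) that left 10936 rows for testing. Each density was represented by 2 libraries of total RNA, all with the genotype labelled WT and with no added agent named. How many cells each density stands for, and how long they were grown, is not in the labels. Nor do these say whether the 2 libraries of a density are separate cultures, so p-values reflect library-to-library spread that may be technical.

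Cyclins are the regulatory subunits that switch on cyclin-dependent kinases (CDKs). D cyclins bind CDK4 and CDK6 and couple growth signals to passage through G1 by phosphorylation of the retinoblastoma protein, E cyclins act with CDK2 at entry into S phase, cyclin A2 acts in S phase and G2, and B cyclins drive mitosis with CDK1. Cyclin F activates no kinase and is instead the substrate receptor of a ubiquitin ligase, while cyclin G2 is associated with cell cycle arrest rather than progression. In the mouse thymus, cyclin D3 is the D cyclin that immature thymocytes need for their expansion, and Ccnd1 is weakly expressed in most normal lymphocytes.

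All 10 markers of T cells were above 1 TPM on average, with summed levels of 6440 to 6925 TPM at high density and 6586 to 7117 TPM at low density. Of the other cell types checked, all 4 B cell markers and all 4 thymic epithelial markers stayed below that level. Fibroblast markers summed to 44.9 TPM in low density library 1, against 0.263 TPM in low density library 2 and 0.301 and 0.536 TPM in the high density libraries, with Dcn at 0 in all 4. Myeloid markers summed to 20.6 to 25.5 TPM, endothelial markers, of which Pecam1 alone passed 1 TPM and Cdh5 was at 0, to 37.8 to 63.2 TPM, and erythroid markers to 0.749 to 4.38 TPM over the 4 libraries. The 2 high density libraries also differed from each other in several cyclins, as described below. Over all rows tested the log2 fold change, high over low density, had a median of 0.12, an overall shift beside which each cyclin value should be set.

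Of the 9 cyclins tested, Ccng2 rose and Ccnd1 fell at high density, and the other 7 did not pass the test (limma with Benjamini-Hochberg adjustment over all rows tested, adjusted p under 0.05). Over all rows tested, 6.68% were called in either direction, 4.57% higher and 2.11% lower, and 23.5% had an unadjusted p under 0.05. The median log2 fold change of the 9 cyclins was -0.13, on the scale of log2(TPM + 1) used for every log2 value here. The libraries of the 2 densities did not overlap for 5 of the 9 cyclins, close to the 54.7% found over all rows tested. With no filter on low values, limma called 0 of all 25630 rows, although 2565 rows, 3 of them cyclins, had an unadjusted p under 0.05. In bulk RNA, a change in the share of cells that express a gene and a change in RNA per cell cannot be told apart.

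**Figure D1:**
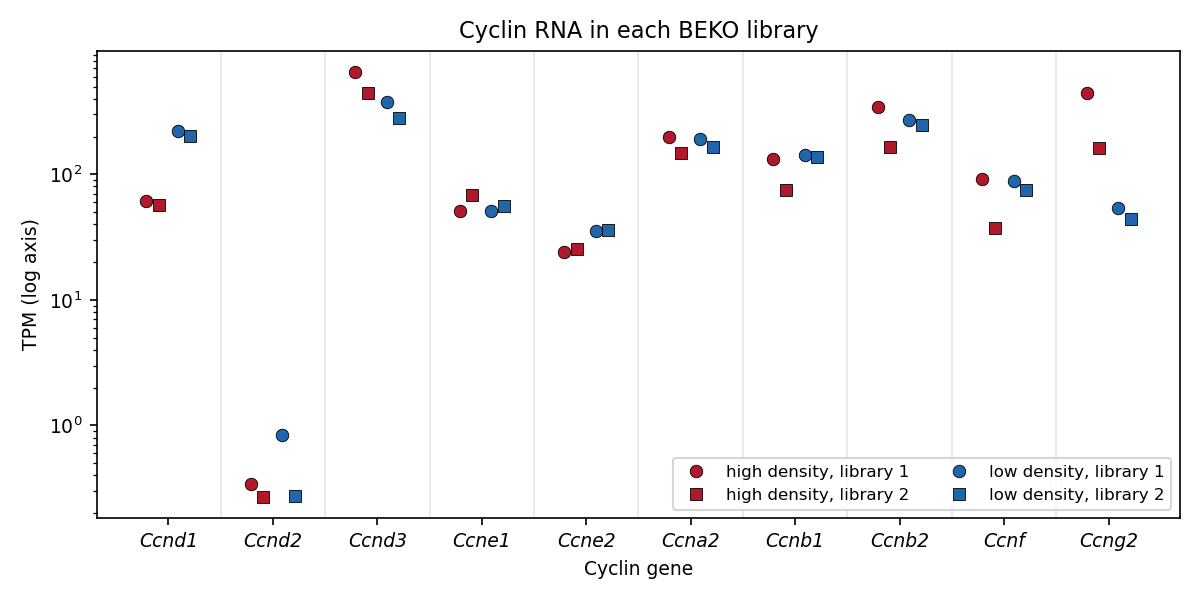
TPM on a log axis of the 10 cyclin genes in each library, with high density in red and low density in blue, circles for library 1 and squares for library 2. Ccng2 lay at 441 and 162 TPM at high density, above both low density libraries, Ccnd1 lay at 61.0 and 56.6 TPM at high density, below both, and Ccnd2 stayed under 1 TPM in all 4.

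Ccnd1, which encodes cyclin D1, had 61.0 and 56.6 TPM in the high density libraries, against 221 and 201 TPM in the low density libraries. Both high density values lay far below both low density values, and the libraries of each density were close together. It averaged 58.8 ± 3.09 TPM at high density and 211 ± 13.9 TPM at low density (SD, n = 2 each), a level 3.58-fold lower at high density. The log2 fold change was -1.82 ± 0.23 (SE, limma adjusted p = 0.00133). Leaving out any 1 library kept the call, with log2 fold changes between -1.89 and -1.76. Every fit without a library, here and for the other genes, leaves 1 density with a lone library, which is assumed to vary as the pair of the other density does. The call was lost without the filter on low values (adjusted p = 0.0897). The fibroblast markers, at 44.9 TPM in low density library 1, summed to 0.263 TPM in low density library 2, where Ccnd1 had 201 TPM. Whether fibroblast RNA added to Ccnd1 was not tested. Without low density library 1 the level of Ccnd1 was 3.41-fold lower at high density. Among the 10936 rows tested, Ccnd1 stood above 70.0% and 61.7% of rows in the high density libraries and above 92.5% and 91.9% in the low density libraries.

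Ccnd3, which encodes cyclin D3, was the highest of the 10 cyclins at both densities. It had 653 and 442 TPM in the high density libraries, against 378 and 280 TPM in the low density libraries. The groups did not overlap, but the libraries within each density were widely spaced. The log2 fold change of 0.72 ± 0.26 (SE) did not pass the test (limma adjusted p = 0.123), with a 95% interval of 0.15 to 1.29 before any adjustment for the number of rows. Without high density library 2 it was called, at 1.00 (adjusted p = 0.0136). The listed genes of nearest profile, by the distance explained below for Ccnd1, were Nusap1, a spindle protein gene (0.20), and Cdkn2d, which encodes the CDK inhibitor p19 (0.23).

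Ccnd2, the third D cyclin, was near the bottom of the range in every library. It had 0.339 and 0.271 TPM at high density and 0.832 and 0.276 TPM at low density, so that the groups overlapped. It did not pass the filter and was not tested.

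The make-up of the D cyclin RNA differed more between densities than its total. The 3 genes summed to 715 and 499 TPM at high density, against 600 and 482 TPM at low density, with overlapping groups. Ccnd1 made up 8.54% and 11.3% of that sum in the high density libraries, against 36.8% and 41.7% in the low density libraries. The ratio of Ccnd3 to Ccnd1 was 10.7 and 7.81 at high density, against 1.72 and 1.40 at low density. A ratio of 2 genes within a library does not change when that library is rescaled, so the median shift of 0.12 does not enter it. An exact permutation test of 2 libraries against 2 cannot reach the threshold of 0.05 for such a single value, and none is given.

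**Figure D2:**
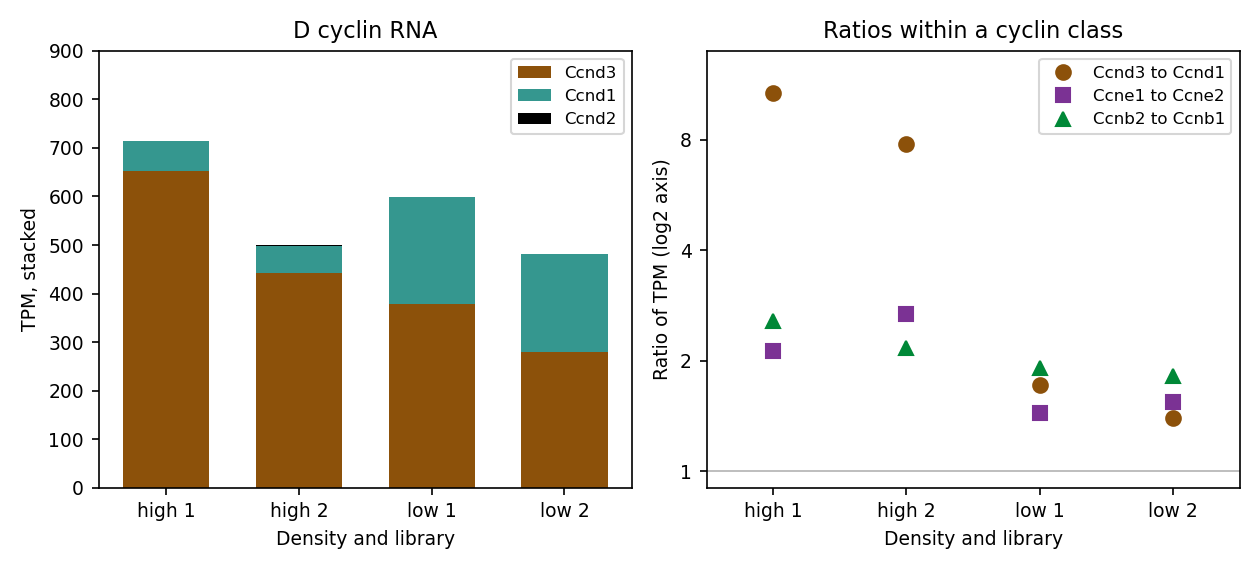
Left, stacked TPM of Ccnd3, Ccnd1 and Ccnd2 in each library, with the bars starting at 0. Right, ratios of TPM between 2 genes of a cyclin class on a log2 axis: the ratio of Ccnd3 to Ccnd1 was 10.7 and 7.81 in the high density libraries and 1.72 and 1.40 in the low density libraries. The ratio of Ccne1 to Ccne2 was 2.12 and 2.69 at high density and 1.44 and 1.54 at low density. That of Ccnb2 to Ccnb1 was 2.57 and 2.17 at high density and 1.92 and 1.81 at low density.

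The kinase partners of the D cyclins lay lower at high density, Cdk6 past the threshold and Cdk4 not. Cdk6 had 27.8 and 30.4 TPM in the high density libraries, against 69.7 and 64.7 TPM in the low density libraries (limma adjusted p = 0.0173, with a log2 fold change of -1.18 ± 0.25 SE). The Cdk6 call was lost without low density library 1 (adjusted p = 0.359) and without low density library 2 (0.346). Cdk4, named after its values were seen, had 536 and 600 TPM at high density and 889 and 855 TPM at low density (adjusted p = 0.113). Of the 5 kinases listed, Cdk1, Cdk2, Cdk4, Cdk6 and Cdk7, 1 fell, 0 rose and 4 did not pass. Over all rows tested 2.11% were called lower, and the median log2 fold change of the 5 kinases was -0.20. By the distance between log2 profiles over the 4 libraries, each centred on its mean, Cdk6 (0.66) and the interleukin-7 receptor gene Il7r (0.67) were the nearest to Ccnd1 of 140 other cell cycle and quiescence genes tested.

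Neither E cyclin passed the test between densities. Ccne1 had 50.8 and 68.2 TPM at high density and 51.0 and 55.7 TPM at low density, and the groups overlapped (log2 fold change 0.14 ± 0.26 SE, limma adjusted p = 0.783). After each library was centred on its median the sign turned, to -0.045, and without high density library 2 it was -0.067. Ccne2 had 23.9 and 25.4 TPM at high density, against 35.5 and 36.2 TPM at low density. Those groups did not overlap and the libraries of each density were close together, but the log2 fold change of -0.52 ± 0.26 (SE) did not pass (limma adjusted p = 0.25). The ratio of Ccne1 to Ccne2 was 2.12 and 2.69 at high density, against 1.44 and 1.54 at low density. Only the 140 other cell cycle and quiescence genes were searched for near profiles. Of these, E2f1, a transcription factor of S phase genes (distance 0.057), and Cdc45, a component of the replicative helicase (0.10), were nearest to Ccne1. Skp2, a ubiquitin ligase subunit (0.076), and the helicase subunit gene Mcm7 (0.099) were nearest to Ccne2.

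**Figure D3:**
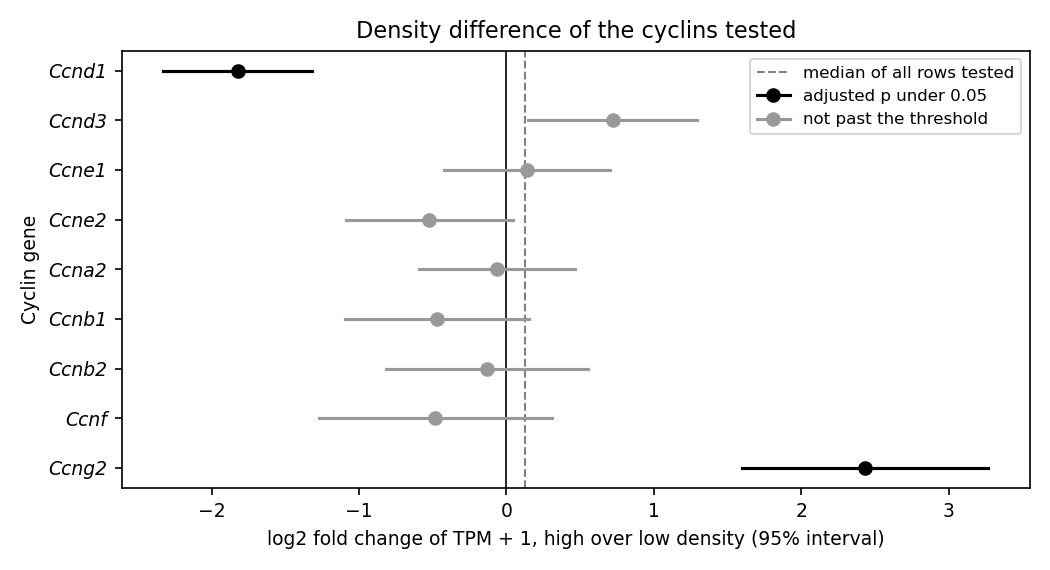
Log2 fold change of TPM + 1, high over low density, for the 9 cyclins tested, as points with 95% intervals from limma that are not adjusted for the number of rows. Black marks an adjusted p under 0.05, grey the others, and the dashed line, at 0.12, marks the median over every row tested; Ccnd1 lies at -1.82 and Ccng2 at 2.43, and the interval of Ccnd3 is the only grey one that does not reach 0.

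The cyclins of S phase, G2 and mitosis, Ccna2, Ccnb1, Ccnb2 and Ccnf, were not called in either direction. Their summed level was 764 and 425 TPM in the high density libraries, against 696 and 625 TPM in the low density libraries. High density library 1 stood above both low density libraries and high density library 2 below both. Ccna2 had 197 and 149 TPM at high density and 193 and 166 TPM at low density (log2 fold change -0.063 ± 0.24 SE, limma adjusted p = 0.905). Ccnb1 had 133 and 75.4 TPM at high density, against 142 and 136 TPM at low density (-0.47 ± 0.28 SE, adjusted p = 0.348). It was the 1 gene of these 4 whose groups did not overlap. Ccnb2 had 343 and 164 TPM at high density and 272 and 247 TPM at low density, so that the low density values fell between the high density ones (-0.13 ± 0.31 SE, adjusted p = 0.838). Ccnf was placed likewise, with 91.9 and 37.0 TPM at high density and 89.2 and 75.4 TPM at low density (-0.48 ± 0.36 SE, adjusted p = 0.457).

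The values for these genes turned on which high density library was used. Without high density library 1, the log2 fold changes were -0.88 for Ccnb1, -0.66 for Ccnb2 and -1.13 for Ccnf. The median over all rows tested was then 0.27. Without high density library 2, the values were -0.063 for Ccnb1, 0.40 for Ccnb2 and 0.16 for Ccnf, beside a median of -0.023. A lone high density library gives no measure of spread at that density, so only effect sizes are given for these fits.

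RefSeq promoter windows, from 250 bases before to 50 after a start site on GRCm38.p6, were found for 6 of the 10 cyclins, Ccnd3 with 2 windows. The windows of Ccnb1, Ccnb2 and Ccnf are shown because these genes varied together. Capitals mark each match to CCAAT, the site bound by the factor NF-Y, or to TTTGAA, searched on both strands. TTTGAA is a form of the cell cycle genes homology region, which DREAM and MuvB complexes bind, and other forms were not searched. The windows are chr13:100786437-100786736 for Ccnb1, chr9:70421505-70421804 for Ccnb2 and chr17:24251360-24251659 for Ccnf, each on the minus strand and written 5′ to 3′ along the gene.
Ccnb1: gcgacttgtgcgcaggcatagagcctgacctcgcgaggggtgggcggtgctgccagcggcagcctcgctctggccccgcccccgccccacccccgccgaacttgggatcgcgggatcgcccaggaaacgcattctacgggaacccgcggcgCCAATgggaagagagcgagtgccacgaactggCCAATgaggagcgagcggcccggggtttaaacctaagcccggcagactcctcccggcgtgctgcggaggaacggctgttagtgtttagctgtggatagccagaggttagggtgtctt
Ccnb2: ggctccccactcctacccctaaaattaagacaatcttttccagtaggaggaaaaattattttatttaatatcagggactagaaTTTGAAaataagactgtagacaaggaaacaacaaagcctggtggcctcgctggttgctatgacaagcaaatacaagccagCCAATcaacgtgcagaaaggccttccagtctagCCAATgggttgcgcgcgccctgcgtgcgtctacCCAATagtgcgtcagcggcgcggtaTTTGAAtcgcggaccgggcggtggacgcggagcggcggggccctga
Ccnf: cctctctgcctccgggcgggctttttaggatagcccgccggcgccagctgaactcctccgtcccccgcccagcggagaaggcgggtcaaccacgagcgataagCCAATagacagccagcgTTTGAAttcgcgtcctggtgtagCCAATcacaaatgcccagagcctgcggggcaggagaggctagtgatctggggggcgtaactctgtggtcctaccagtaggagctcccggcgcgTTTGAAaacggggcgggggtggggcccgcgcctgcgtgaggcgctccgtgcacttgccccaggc
Ccnb2 held 3 CCAAT matches, whose first bases lay at -87, -54 and -21 from the start site with 33 bases between neighbours. Ccnb1 held 2 at a spacing of 32 bases and Ccnf 2 at a spacing of 40 bases. TTTGAA was found in 2 places each in Ccnb2, one of them just past the start site, and in Ccnf, and not in the window of Ccnb1. Ccnd3 also held CCAAT, in 1 of its 2 windows, so 4 of the 6 cyclins with a window had a match. Of all 32851 windows of this length, 37.4% held CCAAT and 17.9% held TTTGAA. A match is a run of letters and does not show that a factor binds there.

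The smallest distance between any members was that of Ccnb1 and Ccnf (0.36), followed by Ccnb1 and Ccnb2 (0.39) and Ccnb2 and Ccnf (0.39). Ccna2 lay farther off, at 0.48 from Ccnb2, 0.51 from Ccnb1 and 0.76 from Ccnf, beside 0.60 from Ccne2 and 0.66 from Ccne1. Of the other genes examined, the mitotic kinesin gene Kif20a (0.067) and the CDK inhibitor gene Cdkn2c (0.11) were nearest to Ccnb1, the ubiquitin-conjugating enzyme gene Ube2c (0.075) and the spindle factor gene Tpx2 (0.10) to Ccnb2, and Cdc20 (0.29), an activator of the anaphase-promoting complex, and Kif20a (0.30) to Ccnf. Wee1, a kinase that inhibits CDK1 (0.054), and Anapc2, a subunit of the anaphase-promoting complex (0.11), were nearest to Ccna2. Ube2c had 458 and 226 TPM at high density and 390 and 350 TPM at low density, the same placing as Ccnb2.

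The wider G2/M genes showed the same difference between the high density libraries. Of 25 genes such as Plk1, Aurka and Kif11, 22 were lower in high density library 2 than in library 1, with a median difference of -0.42, where 28.8% of all rows tested were lower and the median difference was 0.27. For the 4 cyclins A2, B1, B2 and F all 4 were lower, with a median of -0.94. Of 25 G1/S replication genes, by contrast, 1 was lower in high density library 2 (median 0.52), and Ccne1 differed by 0.42 in the same direction. Between the low density libraries, 22 of the 25 G2/M genes were lower in library 2, with a median of -0.20, where 69.7% of all rows tested were lower, with a median of -0.12. These are differences between single libraries and carry no test.

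**Figure D4:**
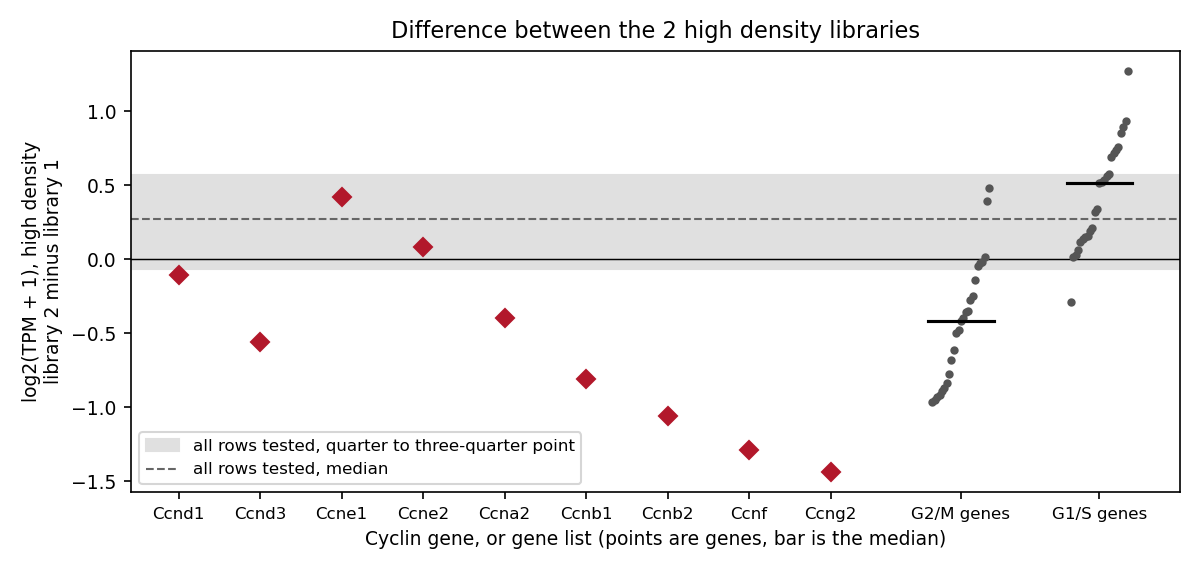
Difference of log2(TPM + 1) between high density library 2 and library 1 for each cyclin tested (diamonds) and for the genes of the G2/M and G1/S lists (points, with the median as a bar); the grey band holds the middle part of all rows tested around their median of 0.27. Ccnb1, Ccnb2, Ccnf and Ccng2 lie between -0.81 and -1.44, and the median is -0.42 for the G2/M genes and 0.52 for the G1/S genes.

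Between densities, the G2/M list had 0 of 25 genes called by limma and 3 at an unadjusted p under 0.05, where 23.5% of all rows tested had one, with a median log2 fold change of 0.24. The smallest p-values were those of Nusap1, at 198 and 150 TPM at high density and 124 and 103 TPM at low density (adjusted p = 0.168), and of Ect2, which acts in cytokinesis (adjusted p = 0.17). In the G1/S list 1 of 25 genes fell and 0 rose, beside 2.11% and 4.57% of all rows tested, with a median of -0.28. It was Ung, the uracil-DNA glycosylase gene, with 50.3 and 41.0 TPM at high density, against 102 and 96.6 TPM at low density (limma adjusted p = 0.0209). Its call was lost when either low density library was left out (0.314 and 0.343), after median centring (0.0529) and after quantile normalisation (0.0549).

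Of 17 E2F, DREAM and MuvB factors, which control transcription of many cyclin genes, limma called 0, with 4 at an unadjusted p under 0.05, the same share as the 23.5% of all rows tested, and a median of 0.26. Tfdp1, a dimer partner of E2F proteins, had 175 and 204 TPM at high density and 319 and 295 TPM at low density (adjusted p = 0.0877). Its relative Tfdp2 lay the other way, at 41.0 and 47.2 TPM at high density and 26.3 and 23.5 TPM at low density (adjusted p = 0.0894). Of 25 genes of cyclin ubiquitination 0 were called, with 6 at an unadjusted p under 0.05, again close to the 23.5% of all rows, and a median of -0.053. Fbxo5, an inhibitor of the anaphase-promoting complex, had 230 and 315 TPM at high density and 157 and 149 TPM at low density (adjusted p = 0.0678). Anapc13, a subunit of that complex, had 115 and 106 TPM at high density and 156 and 197 TPM at low density (adjusted p = 0.117). Of 8 CDK phosphatases, inhibitory kinases, CKS proteins and the cyclin D-binding protein gene Ccndbp1, 0 were called, beside 6.68% of all rows tested. An unadjusted p under 0.05 was found for 1 gene of the 8, beside 23.5% of all rows tested. That gene was Cdc25a, which encodes a phosphatase that activates CDK2, at 46.0 and 69.6 TPM at high density and 102 and 94.2 TPM at low density (adjusted p = 0.103). Cks1b, which encodes a CDK-binding protein, followed with 499 and 413 TPM at high density and 558 and 671 TPM at low density (adjusted p = 0.285).

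Ccng2 had the largest log2 fold change of the cyclins tested. It had 441 and 162 TPM in the high density libraries, against 53.8 and 44.0 TPM in the low density libraries. Both high density values lay well above both low density values, though they differed from each other more than for any other of the 10 cyclins. It averaged 301 ± 197 TPM at high density and 48.9 ± 6.93 TPM at low density (SD, n = 2 each), a 6.16-fold rise. The log2 fold change was 2.43 ± 0.38 (SE, limma adjusted p = 0.00384). With high density library 1 left out the rise was 3.31-fold, and with high density library 2 left out it was 9.02-fold. Limma called it without any 1 of the 4 libraries (highest adjusted p = 0.0013). The call was lost after median centring (2.25, adjusted p = 0.083), after quantile normalisation (2.35, adjusted p = 0.0648) and without the filter on low values (adjusted p = 0.475). In rank, Ccng2 was second among the 10 cyclins at high density and eighth at low density. It supplied 22.1% and 13.7% of the summed TPM of the 10 genes in the high density libraries, against 3.74% and 3.54% in the low density libraries.

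The promoter window of Ccng2, chr5:93267323-93267622 on the plus strand of GRCm38.p6 (RefSeq), is shown because this gene rose. It was searched on both strands for GTAAACA, a site of forkhead factors such as the FOXO proteins, and for ACGTG and GCGTG, the core letters of hypoxia response elements, with matches in capitals. Other forms of the forkhead site, and bases outside the window, were not searched.
Ccng2: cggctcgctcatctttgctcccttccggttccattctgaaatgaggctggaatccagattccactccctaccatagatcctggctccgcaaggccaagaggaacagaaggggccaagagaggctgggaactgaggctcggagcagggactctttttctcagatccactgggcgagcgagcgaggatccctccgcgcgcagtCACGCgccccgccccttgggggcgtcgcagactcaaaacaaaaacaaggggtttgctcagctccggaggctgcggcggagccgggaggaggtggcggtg
The only match was GCGTG, on the reverse strand with its first base in the window at -49. Such a match was present in 32.4% of all windows, ACGTG in 19.6% and GTAAACA in 3.65%. All 6 cyclins with a window held GCGTG, Ccnb1, Ccnb2 and Ccnf among them. Ccnd3 held GTAAACA, and Ccne1 and Ccnb2 held ACGTG.

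Ccng2 is known as a target of FOXO factors, and genes of FOXO signalling and quiescence were set beside it. The list was chosen with earlier results of these data known, so its counts give no independent support. Klf2, also listed, did not pass the filter, with 0.647 and 1.86 TPM at high density and 0.607 and 0.279 TPM at low density. Of 15 tested, 4 rose and 1 fell, beside 4.57% and 2.11% of all rows tested, with a median log2 fold change of 0.52. Gadd45a (-0.50), Sesn1 (-0.19) and Foxo4 (-0.17) had log2 fold changes below 0 without being called. Tsc22d3, a glucocorticoid- and FOXO-induced gene, had 122 and 119 TPM at high density, against 38.0 and 19.4 TPM at low density (limma adjusted p = 0.00281). Klf6, a zinc finger factor gene, had 110 and 89.9 TPM at high density, against 44.5 and 27.3 TPM at low density (adjusted p = 0.0112). Foxo3 itself had 191 and 102 TPM at high density, against 58.3 and 39.6 TPM at low density (adjusted p = 0.0175), and Pik3ip1, an inhibitor of phosphoinositide 3-kinase, had 158 and 120 TPM against 68.5 and 44.2 TPM (adjusted p = 0.018). In these 4 genes, named because they were called, every high density value lay above every low density value. The groups did not overlap in 54.7% of all rows tested. The member that fell was Il7r, with 11.7 and 6.44 TPM at high density, against 30.5 and 20.9 TPM at low density (adjusted p = 0.0294). Klf6, Foxo3 and Pik3ip1 lost their calls without low density library 2 (adjusted p = 0.3, 0.203 and 0.425), and Il7r without either low density library (0.496 and 0.178). Klf6, Foxo3, Pik3ip1 and Il7r also lost theirs after median centring and after quantile normalisation.

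Of 140 other cell cycle and quiescence genes tested, Cdkn1b, which encodes the CDK inhibitor p27, had the profile nearest to Ccng2 (distance 0.61). The distance follows the size of a change, so only a listed gene with a large rise could lie near Ccng2. Cdkn1b had 493 and 287 TPM in the high density libraries, against 102 and 80.2 TPM in the low density libraries, a 4.29-fold rise (log2 fold change 2.05 ± 0.28 SE, limma adjusted p = 0.00204, and 0.0615 after median centring). Of 7 CDK inhibitors and pocket proteins tested, 2 rose and 0 fell, beside 4.57% and 2.11% of all rows, with a median of 0.84. The other was Rb1, the retinoblastoma gene, with 95.9 and 114 TPM at high density, against 46.0 and 41.7 TPM at low density (adjusted p = 0.0128). Rb1 lost its call when either low density library was left out (0.11 and 0.269). Cdkn2a and Cdkn2b, inhibitors of CDK4 and CDK6, were listed at 0 in all 4 libraries, and Cdkn1c stayed below the filter. The second nearest to Ccng2 was Ccno (distance 0.73), another atypical cyclin gene, with 59.7 and 20.3 TPM at high density, against 11.2 and 8.94 TPM at low density (adjusted p = 0.0343). Its call was lost without low density library 1 or 2 (0.0786 and 0.247), with a pseudocount of 5 (0.0506), without the trend (0.0652), after median centring (0.162) and after quantile normalisation (0.175). Over all 4 libraries Ccno differed by 1.71 on the log2 scale, a value that became 0.95 with high density library 1 left out and 2.46 with library 2 left out.

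The order of the cyclins by mean TPM was Ccnd3, Ccng2, Ccnb2, Ccna2, Ccnb1, Ccnf, Ccne1, Ccnd1, Ccne2 and Ccnd2 at high density. The ranges of the libraries overlapped between neighbours from Ccng2 to Ccna2 and from Ccnb1 to Ccnd1, so the order within these runs is not settled. At low density it was Ccnd3, Ccnb2, Ccnd1, Ccna2, Ccnb1, Ccnf, Ccne1, Ccng2, Ccne2 and Ccnd2. There only Ccne1 and Ccng2 overlapped as neighbours.

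**Figure D5:**
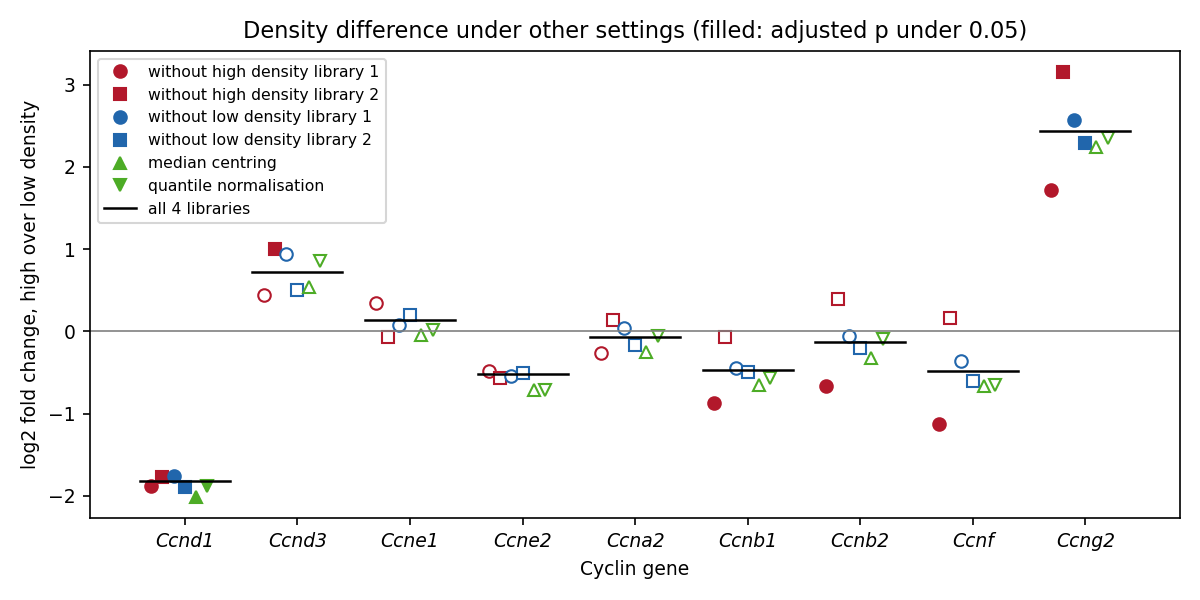
Log2 fold change, high over low density, of each cyclin tested without each library in turn and under 2 other scalings; black bars give the value over all 4 libraries and filled symbols an adjusted p under 0.05. Ccnd1 is filled under all 6 settings shown, Ccng2 is filled without any 1 library and open under both scalings, and Ccnb1, Ccnb2 and Ccnf are filled only without high density library 1. Each fit without a library leaves 1 density with a lone library, so its filled symbols rest on the spread of the other density.

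Some cyclin rows can share reads with other genes. In GENCODE M21, Ccnd1 overlaps LTO1, Ccnd3 overlaps Bysl, Ccne2 overlaps Ints8 and Ccna2 overlaps Exosc9, each on the opposite strand. The libraries were strand-specific per the labels' protocols, but whether the counting used the strand is not stated there. LTO1 had 11.3 and 17.2 TPM at high density and 12.8 and 13.0 TPM at low density, below Ccnd1 in every library. Ints8, which shares 5622 bases with Ccne2, had 31.5 and 39.6 TPM at high density and 39.7 and 33.6 TPM at low density, a level like that of Ccne2 or above it. Exosc9 had 55.6 and 72.5 TPM at high density and 83.2 and 86.4 TPM at low density, below Ccna2 in every library. Bysl had 18.8 and 39.7 TPM at high density and 49.9 and 43.2 TPM at low density, below Ccnd3 in every library. Ccnb1, Ccnb2 and Ccnd3 have annotated processed pseudogenes, and how reads common to gene and copy were assigned is likewise not stated, so the levels of these 3 genes are less certain.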

How the data were processed

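RNA of 4 libraries of the BEKO line was measured, 2 at high and 2 at low density. The authors deposited 1 table of TPM, scaled so that each library totals 1000000. Per the submitters' processing notes, mm9 and DESeq2 1.2.10 were among the builds and tools, without a role. The aligner, the counter, the annotation and the lengths used were not given in the sources used here. TPM keeps no depth, so the read number is unknown and no counting interval is given. TPM is also relative, so a rise of abundant RNAs lowers the other values.

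Columns were tied to samples by the labels. A row was tested if its mean reached 1 TPM (10936 of 25630), on log2(TPM + 1), with limma 3.58.1 in R 4.3.3, with a mean-variance trend, two-sided, and Benjamini-Hochberg adjustment over all rows tested (2 residual degrees of freedom, 9.53 added by moderation). The fit was tested on simulated data. Where no log is given, a fold is the quotient of group means in TPM. The members and lists were chosen with earlier results of these data known. Named genes were the 10 members, from each list up to 4 called genes of smallest p or else the 2 of smallest p, and for each member the 2 genes of nearest profile; others are said to be named after their values were seen or serve as examples of a list. Promoter sequences are from RefSeq, GRCm38.p6; the files carry no coordinates. Alternatives were the pseudocount (0.1 or 5), the filter on mean TPM (none, or 5), median centring, quantile normalisation, limma without the trend, the replicate number as a block, and leaving out each library.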

Additional observations from a re-analysis of the deposited data

How the results depend on the processing

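Over all rows, limma called 731. Under median centring 314 rows, 0 higher and 1 lower cyclin and 4 cell cycle and quiescence genes were called, against 10 of these genes in the fit reported. Under quantile normalisation the numbers were 360, 0, 1 and 4. With no filter on low values limma called 0 rows, 0 cyclins higher, 0 cyclins lower and 0 of the listed genes (2565 rows, 3 cyclins and 33 listed genes at an unadjusted p under 0.05). Leaving out 1 library gave 233 to 3270 rows, 1 to 2 cyclins higher, 1 to 4 lower and 2 to 45 listed genes. The share of calls that were higher was 68.4% in the fit reported, 51.0% after median centring and 60.0% after quantile normalisation. Signs turned for cyclins that were not called: leaving out 1 library gave log2 fold changes of -0.067 to 0.35 for Ccne1, -0.26 to 0.14 for Ccna2, -0.66 to 0.40 for Ccnb2 and -1.13 to 0.16 for Ccnf, and Ccne1 was -0.045 after median centring. The cause was not tested. With the replicate number as a block, limma called 937 rows and the cyclin calls were again Ccnd1 and Ccng2. Deviations of same-numbered libraries correlated at r = 0.042 across genes, and no label says that a number marks a shared culture. With 2 libraries a group and unknown depth, moderate differences of single cyclins cannot be separated from the spread between libraries.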

Other observations

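Cyclin genes other than the 10 above were also examined. Of 16 such genes, 13 were tested, 1 rose (Ccno, described above) and 0 fell, beside 4.57% and 2.11% of all rows tested. The 13 had a median log2 fold change of 0.28, while Ccna1, Ccnb3 and Ccnjl were listed at 0 in all 4 libraries. Ccnl2, a cyclin of RNA splicing, had 269 and 254 TPM at high density and 155 and 157 TPM at low density, a difference that did not pass the test (limma adjusted p = 0.0685). Ccni, an atypical cyclin, had 413 and 347 TPM at high density and 249 and 208 TPM at low density (adjusted p = 0.0822). Ccng1, the closest relative of Ccng2 and a target of p53, had 139 and 115 TPM at high density and 152 and 139 TPM at low density (log2 fold change -0.20 ± 0.23 SE, adjusted p = 0.652). Ccnl2, Ccni and Ccng1 were named after their values were seen.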
